A study of Glycine max and Glycine soja with 189 samples.

Results

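The transcripts described here are the 150 of 73319 measured soybean transcripts, from 134 of 54174 loci, that stood lowest in the wild soybean *Glycine soja* relative to 6 cultivated lines of *Glycine max*. They were chosen by their values. Each of the 63 combinations of day length, genotype and sampling time is a group. For every group the mean RPKM of the 3 libraries plus 1 was taken on the log2 scale, and the score was the lowest of the 54 cultivated groups minus the highest of the 9 *G. soja* groups. RPKM is the read number divided by transcript length and by how many reads of a library mapped. A score above 0 means that every cultivated group lay above every *G. soja* group, which held for 664 transcripts, and the 150 highest scores were kept. The difference between the species is therefore what selected the set and is given below as a description, with no test. No gene name is paired with these ids in the sources used, so the transcripts are given by id and their roles are not named.

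*G. soja* is the wild progenitor of cultivated soybean, and the genomes of both species differ in single bases, in insertions and deletions and in the presence of whole genes. Genes that exist in near-identical neighbouring copies are a common place for such differences. When reads of a wild plant are aligned to transcripts of a cultivar, few reads on a transcript can come from a locus that is absent, from one whose sequence differs too much for the aligner, or from one that is present and little expressed. These values hold read alignments only, so the 3 cannot be told apart here. In bulk tissue, fewer cells that express a gene and less RNA per cell cannot be told apart either.

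The maturity alleles on record are e1E2E3E4e5E7 for the cultivar Clark, E1E2E3E4e5E7 for L65-3366, e1e2E3E4e5E7 for L66-432, e1E2e3E4e5E7 for L74-441 and e1E2e3E4E5E7 for L92-1195. The latter 4 are near isogenic lines of the maturity loci. For the cultivar Williams 82 only E2 is given, and for *G. soja* none. *G. soja* is represented by a single accession, so a value of that accession is not a value of the species at large. Plants grew under short days (SD, 10 h of light), under long days (LD, 16 h of light) or in a shift from 21 days of LD to 5 days of SD (LD-SD). They were sampled at T1 (6:30, before the lights came on), T3 (14:30) and T5 (22:30, dark under SD and lit under LD). According to the sample records the first trifoliate was taken 26 days after planting, while the methods describe the shoot above the cotyledon at an earlier age, so tissue and age are uncertain. No marker genes of a tissue could be looked up by id.

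Mapped reads per library, recovered from the RPKM values, ranged from 6.41 M to 12.7 M in *G. soja* and from 4.92 M to 18.2 M in the cultivated lines. Between 83.9% and 88.3% of the recorded reads of the 27 *G. soja* libraries mapped (median 86.7%), and between 68.4% and 89.5% (median 88.2%) of those of the cultivated libraries. The part of this small difference in the low values was not tested. A group of 8 cultivated libraries went against their labels in transcripts that set their line apart, and 1 library of L92-1195 at T5 under LD-SD had an unclear replicate letter. The check by such transcripts was made for cultivated lines only, so the labels of the *G. soja* libraries were not checked in this way. Without these 9 libraries, 147 of the 150 transcripts stayed among the 150 highest scores.

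Across the set, the mean mRNA abundance in the cultivated lines ranged from 1.17 to 83.1 RPKM (median 4.95 RPKM), and the mean in *G. soja* from 0.010 to 6.56 RPKM (median 0.116 RPKM). In the cultivated lines, 75 transcripts had a mean under 5 RPKM and 13 a mean over 20 RPKM. The ratio of both means had a median of 57.7. It was 2.54 at the lowest and 272 at the highest among the 141 transcripts with more than 3 reads over the 27 *G. soja* libraries together. The other 9 had only 2 or 3 reads in all 27 libraries. No transcript was at 0 in every *G. soja* library, but 39 were at 0 in 20 or more of them, and 56 had at most 3 reads in each of the 27. At the other end, 42 transcripts were above 0 in all 27 libraries and 21 had more than 3 reads in all of them. The set thus ran from transcripts with a stray read to transcripts with reads in every library of *G. soja*. For 135 transcripts the lowest cultivated library still lay above the highest *G. soja* library. For the other 15, between 1 and 6 cultivated libraries overlapped with *G. soja*. The score selects for a gap between the groups, so these counts largely follow from the choice of the set. No share over all transcripts is given for them.

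**Figure D1:**
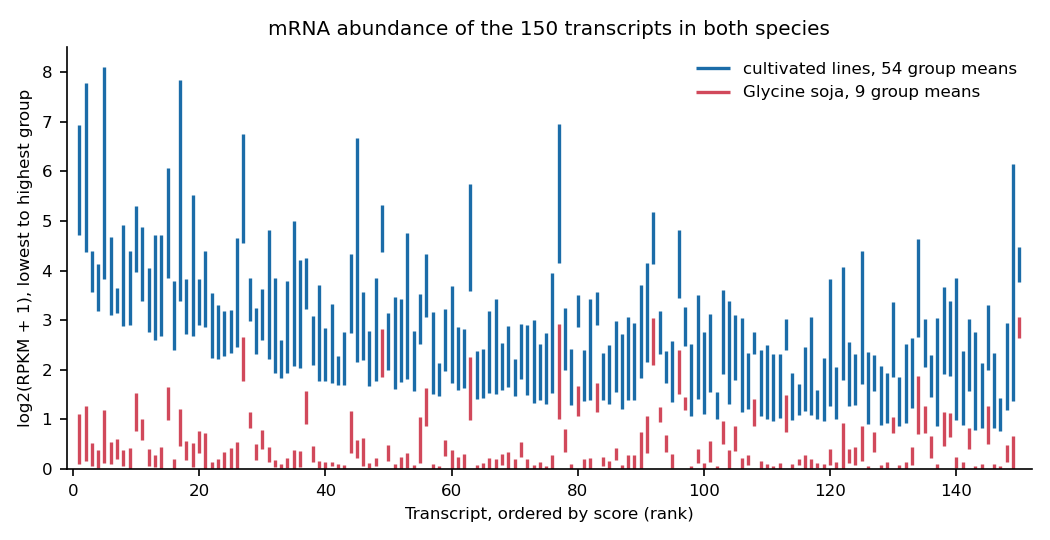
Range of the group means of each of the 150 transcripts, ordered by score on the x axis, with log2(RPKM + 1) on the y axis. Blue lines span the 54 cultivated groups and red lines the 9 *G. soja* groups, and the gap between both lines is the score, which falls from 3.6 to 0.70.

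Summed over the 150 transcripts, the abundance per library lay between 58.3 and 95.8 RPKM in *G. soja* (median 65.6 RPKM) and between 963 and 1910 RPKM in the cultivated lines (median 1370 RPKM). The number of transcripts with more than 3 reads lay between 39 and 70 in a *G. soja* library (median 53) and between 145 and 150 in a cultivated library. Within *G. soja*, the 3 libraries of SD at T3 had sums of 59.1, 61.1 and 65.3 RPKM, and those of LD-SD at T5 had 62.8, 71.9 and 95.8 RPKM. The highest of the 9 *G. soja* groups was LD at T1 for 39 transcripts and LD-SD at T3 for 35. In the cultivated lines, the lowest of the 54 groups lay at T3 for 76 transcripts, at T1 for 57 and at T5 for 17.

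**Figure D2:**
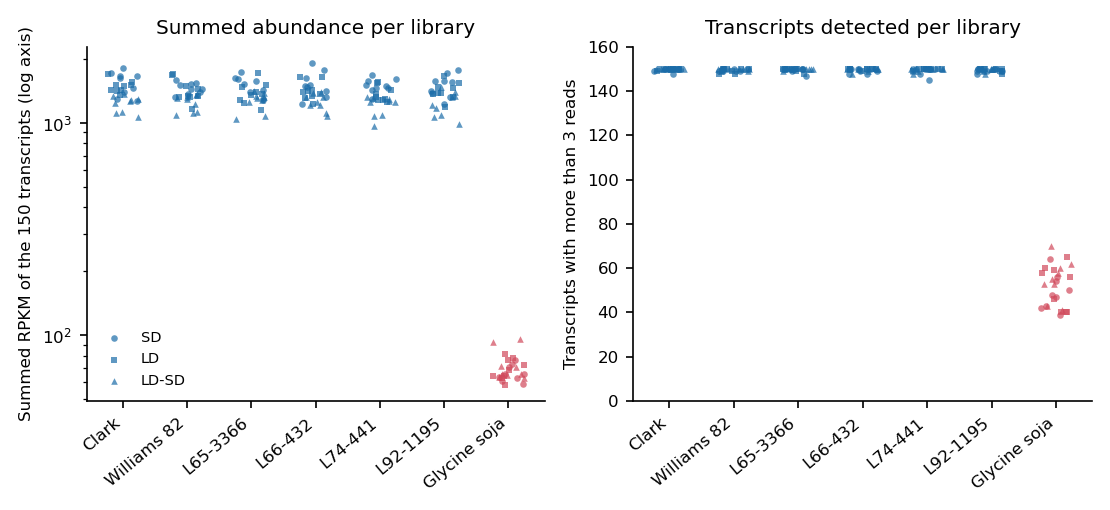
Summed RPKM of the 150 transcripts (left, log axis) and number of transcripts with more than 3 reads (right), with 1 point per library and 27 libraries per genotype; the marker shape gives the photoperiod. The *G. soja* libraries lie between 58.3 and 95.8 RPKM and the cultivated libraries between 963 and 1910 RPKM.

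The highest score, 3.6, belonged to Glyma15g12211.1. Its lowest, median and highest values were 15.7, 43.0 and 140 RPKM over the cultivated libraries and 0, 0.270 and 2.21 RPKM over the *G. soja* libraries, where 99 reads were counted in all. Glyma08g39390.1 (score 3.09) reached 14.8, 45.9 and 258 RPKM in the cultivated lines and 0, 0.265 and 3.39 RPKM in *G. soja*. For both transcripts, no library of one species overlapped with the other, although a single *G. soja* library held 59 of the 245 reads of Glyma08g39390.1. Glyma04g37191.1 (score 3.06) was steadier, with 9.12, 16.0 and 25.9 RPKM in the cultivated lines and 0, 0.159 and 0.993 RPKM in *G. soja*. Glyma08g18211.1 (score 2.81) had 7.28, 12.2 and 21.3 RPKM against 0, 0.0790 and 0.477 RPKM. The most abundant transcript of the set was Glyma02g18090.1 (score 2.64), with 2.98, 55.3 and 381 RPKM in the cultivated lines and 0, 0.406 and 3.02 RPKM in *G. soja*. It also varied most among these first 5, and 1 cultivated library overlapped with *G. soja*.

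Glyma12g09750.1, Glyma19g31674.1, Glyma07g30180.1, Glyma13g33380.1 and Glyma09g14870.1 followed, with scores from 2.55 down to 2.43 and no overlap between libraries. Among them, Glyma13g33380.1 was the closest to absent, with 5.19, 13.4 and 25 RPKM in the cultivated lines and 0 in 19 of 27 *G. soja* libraries, where no library had more than 3 reads. Glyma19g31674.1 and Glyma09g14870.1 were above 0 in every *G. soja* library. The levels of Glyma19g31674.1 were 6.77, 9.71 and 14.9 RPKM in the cultivated lines and 0.0798, 0.348 and 0.657 RPKM in *G. soja*. For Glyma09g14870.1 they were 13.0, 27.2 and 48.3 RPKM against 0.453, 1.37 and 2.54 RPKM, with 372 reads in *G. soja*. A high score was thus reached by transcripts near 0 as well as by transcripts with reads in every *G. soja* library.

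The 5 transcripts most abundant in *G. soja* were Glyma02g26791.1 (mean 6.56 ± 0.942 RPKM, SD, n = 27), Glyma02g45880.1 (5.56 ± 1.57 RPKM), Glyma08g12480.1 (4.56 ± 1.46 RPKM), Glyma06g41392.1 (3.50 ± 1.19 RPKM) and Glyma10g12370.1 (3.4 ± 2.64 RPKM). In the cultivated lines their means were 16.7 ± 2.67, 24.1 ± 5.49, 30.3 ± 5.08, 58.5 ± 18.6 and 56.6 ± 42.5 RPKM (SD over all cultivated libraries), in the same order. Glyma08g12480.1 had 2929 reads in *G. soja*, the most of the set. Of these 5, Glyma10g12370.1 overlapped between the species in 2 cultivated libraries.

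At the limit of the set, Glyma11g06911.1, Glyma15g36583.1 and Glyma02g26791.1 were the last inside, with scores of 0.715, 0.706 and 0.704. Glyma02g10331.1, Glyma20g22690.1 and Glyma19g30670.2 were the first outside, with 0.702, 0.694 and 0.693. The step at the limit is small, and the transcripts just outside look like those inside. Glyma02g10331.1 had a median of 2.19 RPKM in the cultivated lines and was at 0 in 18 of 27 *G. soja* libraries.

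The loci of the set were spread over all 20 chromosomes, but unevenly. Chromosome 13 held 16, chromosome 8 held 14, chromosome 15 held 13, chromosome 6 held 10 and chromosome 4 held 9, while chromosome 3 held 1. As a share of the loci of a chromosome, this was 0.489% on chromosome 15, 0.444% on chromosome 13 and 0.0387% on chromosome 3, against 0.249% over all chromosomes. The median transcript length was 1268 bases in the set, 1639 bases over all transcripts and 1807 bases over the 45332 transcripts whose mean reached 1 RPKM. The set was also poor in annotated variants, since 121 of its 134 loci (90.3%) had a single transcript, against 78.2% of all loci.

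At 9 loci, several transcripts of the same locus were in the set. Glyma15g39472 and Glyma14g34200 had 4 each, and Glyma01g34680, Glyma15g04930 and Glyma18g20990 had 3 each. In Glyma15g39472, the 4 transcripts had means between 6.64 and 7.39 RPKM in the cultivated lines and between 0.0644 and 0.0808 RPKM in *G. soja*. Variants of a locus share most of their sequence, and how a read matching more than 1 transcript was counted is not given in the sources used here, so such variants are not separate evidence. Only 6 transcripts at 5 loci of the set were themselves outside it, namely Glyma18g20990.3, Glyma18g20990.5, Glyma18g09220.1, Glyma15g36930.3, Glyma17g10150.1 and Glyma02g26791.2. All 6 were lower in *G. soja* by limma on log2(RPKM + 1), where 28.1% of all 61180 transcripts tested were lower. The widest gap between a transcript outside and one inside was at Glyma18g20990. Means in the cultivated lines were 1.73 RPKM for Glyma18g20990.3 and 2.90 RPKM for Glyma18g20990.6. In *G. soja* they were 0.0406 and 0.0425 RPKM, so these variants differed in the cultivated level and hardly in *G. soja*. There the log2 difference of *G. soja* minus the cultivated lines was -1.35 for Glyma18g20990.3 (standard error 0.0538, adjusted p = 1.74e-49) and -1.86 for Glyma18g20990.6. For Glyma18g09220 it was -1.54 for the first variant (standard error 0.0408, adjusted p = 1.34e-69) and -1.79 for the second, and for Glyma17g10150 it was -1.27 (standard error 0.0353, adjusted p = 6.53e-67) and -1.48. For Glyma02g26791 it was -1.10 (standard error 0.0370, adjusted p = 1.62e-57) and -1.22. Since these variants share sequence with transcripts chosen for this difference, their direction is not independent of the choice.

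Of the 134 loci, 29 lay directly beside another locus of the set in the order of the ids, in 12 runs, and 42 had another one within 5 loci. The longest run had 4 loci, Glyma06g41360, Glyma06g41370, Glyma06g41380 and Glyma06g41392 on chromosome 6. Their means were 29.0, 70.1, 31.7 and 58.5 RPKM in the cultivated lines and 0.277, 0.668, 1.40 and 3.50 RPKM in *G. soja*, so the level in *G. soja* was higher toward one end of the run. The loci at both ends differed from each other, and only the one after the run had the same level in both species. Glyma06g41351 had 0.797 RPKM in the cultivated lines and 0.00696 RPKM in *G. soja*, while Glyma06g41404 had 1.14 and 1.15 RPKM. A few loci away on the same chromosome, Glyma06g41290, Glyma06g41300 and Glyma06g41310 formed a run of 3, with 14.1, 4.13 and 17.0 RPKM in the cultivated lines and 0.223, 0.0521 and 0.115 RPKM in *G. soja*.

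On chromosome 4, Glyma04g12690, Glyma04g12703 and Glyma04g12716 had means of 3.84, 3.87 and 4.65 RPKM in the cultivated lines, and only 7, 2 and 2 reads over all 27 *G. soja* libraries. This run ended sharply, since Glyma04g12675 before it had 12 RPKM in the cultivated lines and 13.1 RPKM in *G. soja*, and Glyma04g12729 after it had 8.64 and 10.4 RPKM. On chromosome 15, Glyma15g39510, Glyma15g39515 and Glyma15g39520 had means of 5.55, 4.12 and 2.90 RPKM in the cultivated lines and 6, 5 and 19 reads in *G. soja*. Glyma15g39490 before them was at 0 in all 27 *G. soja* libraries and had a mean of only 0.463 RPKM in the cultivated lines, and the next locus before that, Glyma15g39472, was in the set as well. Glyma15g39531 after the run had 0.602 and 0.00981 RPKM.

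**Figure D3:**
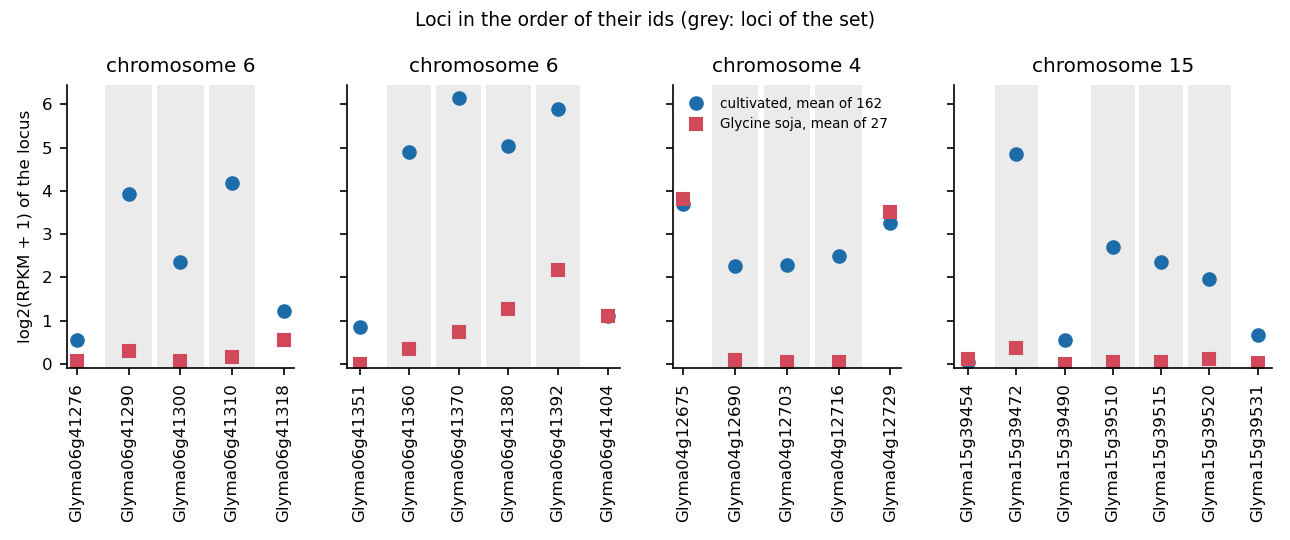
Mean log2(RPKM + 1) of the loci in 4 stretches, with the loci on the x axis in the order of their ids, in the cultivated lines (blue, all libraries) and in *G. soja* (red, 27 libraries); loci of the set are shaded grey. On chromosome 4 the shaded loci are near 0 in *G. soja* while both flanking loci, with 13.1 and 10.4 RPKM, are at the cultivated level.

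To see how far the low values reached, the loci beside those of the set were compared between *G. soja* and the cultivated lines with limma, with the transcripts of each locus added up. There were 230 such loci directly beside a locus of the set, and 177 had a mean of at least 0.1 RPKM and were tested. Of these, 82 (46.3%) were lower in *G. soja* and 52 (29.4%) were higher, against 29.5% lower and 33.0% higher among all 43826 loci tested. A difference of more than 1 on the log2 scale was found for 17 lower loci (9.60%) and 3 higher loci (1.69%), against 1.36% lower and 1.36% higher among all loci. Among the 685 loci tested at 2 to 5 steps away, 246 (35.9%) were lower and 211 (30.8%) were higher. By more than 1 on the log2 scale, 15 of these (2.19%) were lower and 23 (3.36%) higher. Lower loci were thus more frequent directly beside the set than among all loci, and the share was closer to that of all loci further away. Neighbouring loci can be near-identical copies that share reads, and the part of shared reads in these counts was not tested.

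The neighbours of the 10 highest scores were mixed. Beside Glyma15g12211, Glyma15g12200 had 2.76 RPKM in the cultivated lines and 5.08 RPKM in *G. soja*, and Glyma15g12220 had 21.9 and 24.5 RPKM. Both were higher in *G. soja* (log2 difference 0.62, standard error 0.104, adjusted p = 1.04e-07 and 0.15, standard error 0.0308, adjusted p = 1.40e-05, limma). Beside Glyma04g37191, Glyma04g37220 had 6.12 and 5.93 RPKM (adjusted p = 0.50). Beside Glyma08g18211, however, Glyma08g18200 had 51.8 and 25.1 RPKM and was lower in *G. soja* (log2 difference -1.32, standard error 0.175, adjusted p = 5.18e-11). The locus before Glyma08g39390 was itself in the set, and the locus after it, Glyma08g39400, had 0.706 and 0.00849 RPKM. Both loci beside Glyma02g18090 had a mean under 0.1 RPKM in both species. The lowest neighbour of the set was Glyma13g33475 (12.1 RPKM in the cultivated lines, 1.68 RPKM in *G. soja*, log2 difference -2.31, standard error 0.0979, adjusted p = 7.09e-47). The highest was Glyma15g37370, with 0.318 RPKM in the cultivated lines and 9.03 RPKM in *G. soja* (log2 difference 2.86, standard error 0.0828, adjusted p = 3.49e-65). These last 2 were picked out after their values were seen.

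The cultivated lines, where these transcripts are expressed, allow a test of photoperiod that the choice of the set did not use directly. The choice did favour transcripts whose lowest cultivated group is well above 0. All 150 passed the minimum mean of 0.1 RPKM, and the percentages for all transcripts cover 60898. At T1, 78 of 150 transcripts (52.0%) were higher under SD than under LD and 30 (20%) were lower, against 30.0% and 29.2% of all transcripts. The median log2 difference was 0.20 in the set and 0.00 over all transcripts. At T3, 33 transcripts (22.0%) were higher under SD and 73 (48.7%) were lower, against 19.6% and 41.9%, with medians of -0.17 and -0.10. At T5, 40 (26.7%) rose and 37 (24.7%) fell, against 35.8% and 19.3%, with medians of 0.01 and 0.06. The set therefore leaned toward SD at T1, while its counts at T3 were close to those of all transcripts. At T5 a smaller share of the set rose and a larger share fell than of all transcripts. With a minimum mean of 1 RPKM, which is nearer to the levels of the set, 33.4% of all transcripts were higher under SD at T1 and 32.7% were lower, and at T3 20.8% were higher and 47.6% were lower. With the same minimum, 39.9% were higher and 21.2% lower at T5. A median-of-ratios factor per library changed the split at T3 to 43 higher and 50 lower and at T5 to 29 higher and 49 lower, while the split at T1 was 78 and 31. With this factor 28.0% of all transcripts were higher and 27% lower at T3, 25.4% and 25.1% at T5, and 30.6% and 30.6% at T1. Without the 9 libraries of unclear label, 78 were higher and 28 lower at T1, 34 and 73 at T3, and 42 and 37 at T5. Of all 60914 transcripts tested in that fit, 17353 were higher and 17253 lower at T1, 11997 and 25721 at T3, and 22000 and 11916 at T5.

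After the shift from LD to SD, 72 transcripts (48.0%) were higher than under LD at T1 and 30 (20%) were lower, against 29.0% and 27.8% of all transcripts. At T3, 25 (16.7%) were higher and 53 (35.3%) lower, against 20.5% and 32.0%. At T5, 23 (15.3%) were higher and 18 (12%) lower, against 16.8% and 12.5%. This total of 41 fell to 25 without replicate B and to 26 without replicate C. Shares of all transcripts in these smaller fits are not given here, so the drop is not read as particular to the set. The median-of-ratios factor gave 35 higher and 46 lower at T3, where 25.9% of all transcripts were higher and 25.5% lower with the same factor. Without the 9 libraries of unclear label, 71 were higher and 28 lower at T1, 25 and 54 at T3, and 23 and 18 at T5. Of all 60914 transcripts tested in that fit, 16931 were higher and 16610 lower at T1, 12466 and 19404 at T3, and 11149 and 6567 at T5. The comparisons with SD and with LD-SD share the LD libraries, so their calls are not independent.

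**Figure D4:**
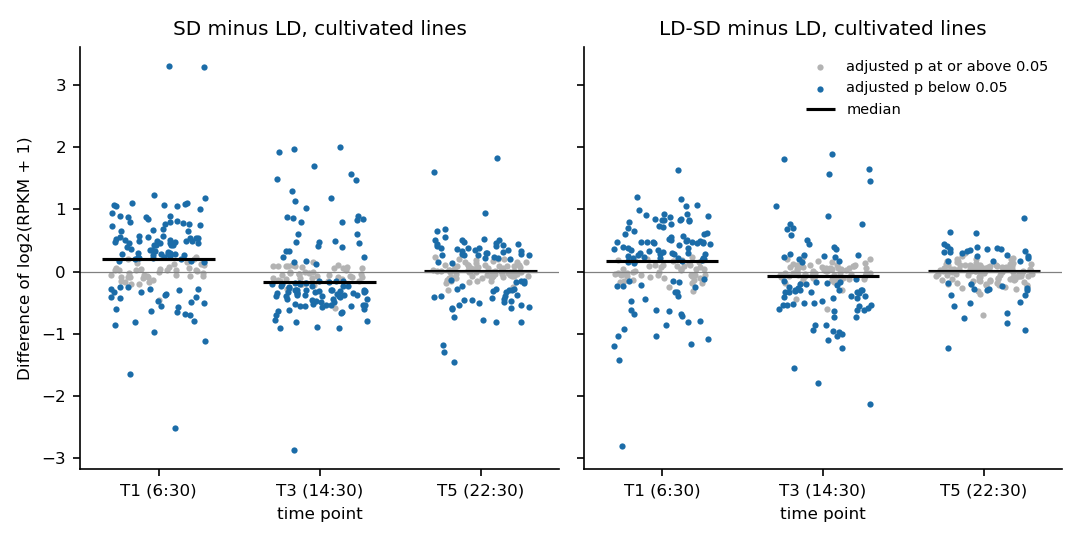
Difference of log2(RPKM + 1) between SD and LD (left) and between LD-SD and LD (right) in the cultivated lines at each time point, with 1 point per transcript of the set, blue where the adjusted p was below 0.05; black lines are medians. At T1 most blue points are above 0, with 78 higher and 30 lower for SD minus LD, and at T3 most are below.

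The largest rises under SD at T1 belonged to Glyma06g41370.1 and Glyma06g41360.1, which lie side by side in the run on chromosome 6. Glyma06g41370.1 had lowest, median and highest values of 147, 201 and 272 RPKM under SD at T1 and 6.95, 21.1 and 40.7 RPKM under LD (18 cultivated libraries each), with no overlap. The log2 difference was 3.30 (standard error 0.201, adjusted p = 7.20e-30). For Glyma06g41360.1 the values were 56.5, 93.5 and 117 RPKM against 3.81, 8.47 and 16.7 RPKM, with a log2 difference of 3.29 (standard error 0.193, adjusted p = 3.53e-31). Both were also higher under SD at T5, by 1.83 and 1.61 on the log2 scale, and at T3 by 0.89 and 0.86. After the shift, Glyma06g41370.1 was at 10.6, 41.6 and 81.2 RPKM at T1, higher than under LD by 1.06, but at T3 both were lower than under LD, by -1.22 and -1.10. In *G. soja*, Glyma06g41370.1 was at 0.232, 0.419 and 0.467 RPKM under SD at T1 and at 0.866, 1.37 and 1.72 RPKM under LD at T1.

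Their neighbours in the run moved otherwise at T1, but in the same direction at T3 after the shift. Under SD at T1, Glyma06g41380.2 was lower than under LD by -0.67 and Glyma06g41392.1 by -0.50 on the log2 scale (standard errors 0.0911 and 0.0766), and both were lower after the shift, by -0.80 and -0.68 at T1 and by -0.94 and -1.0 at T3. The 3 loci of the other run on chromosome 6 changed mainly after the shift. Glyma06g41310.1 was at 2.97, 4.56 and 11.9 RPKM at T3 after the shift and at 11.9, 19.5 and 31.6 RPKM under LD, a log2 difference of -1.79 (standard error 0.157, adjusted p = 4.80e-19). Glyma06g41290.2 fell by 1.54 and Glyma06g41300.1 by 1.03 in the same comparison, and by 1.17 and 0.86 at T1, where Glyma06g41310.1 fell by 0.92. The 3 loci did not pass the threshold for SD minus LD at T1 or at T3 and passed it at T5, with 0.51 for Glyma06g41290.2, 0.55 for Glyma06g41300.1 and 0.36 for Glyma06g41310.1.

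The largest fall under SD at T1 was that of Glyma08g39390.1, from 142, 194 and 258 RPKM under LD to 23.2, 32.2 and 57.6 RPKM under SD, with no overlap. The log2 difference was -2.52 (standard error 0.161, adjusted p = 2.26e-28). After the shift it was at 14.8, 27.2 and 57.2 RPKM at T1 (log2 difference -2.81, standard error 0.161, adjusted p = 6.14e-32). At T3 and T5 under SD its differences from LD, -0.03 and 0.18, did not pass the test. Glyma15g12211.1 fell from 89.9, 107 and 140 RPKM to 22.9, 34.6 and 47.7 RPKM at T1, again without overlap, by 1.65 on the log2 scale (standard error 0.107, adjusted p = 6.74e-28). It fell by 1.43 after the shift. Glyma08g15291.1 had 2.01, 3.68 and 8.65 RPKM under LD at T1 and 0.422, 1.22 and 2.12 RPKM under SD, with a log2 difference of -1.12 and a small overlap. Glyma02g13053.1 rose at T1, from 1.91, 3.61 and 5.76 RPKM under LD to 5.44, 9.93 and 16.7 RPKM under SD (log2 difference 1.23), with a small overlap.

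At T3, the largest rises under SD were those of 3 loci with near ids on chromosome 18. Glyma18g09220.2 had 10.4, 12.6 and 14.9 RPKM under SD and 1.73, 2.52 and 3.67 RPKM under LD, with no overlap (log2 difference 1.96, standard error 0.0710, adjusted p = 2.29e-49). Glyma18g09340.1 had 13.7, 18.5 and 22.5 RPKM against 2.46, 4.18 and 5.83 RPKM also with no overlap (log2 difference 1.92, standard error 0.0994, adjusted p = 1.56e-35). Glyma18g09140.1 had 0.648, 11.9 and 16.3 RPKM against 1.22, 1.89 and 3.77 RPKM (log2 difference 2.00, standard error 0.152, adjusted p = 4.24e-23), and the lowest SD library lay below the lowest LD library. All 3 were lower under SD at T1, by -0.47, -0.65 and -0.70 in this order. At T3 after the shift they lay between, with medians of 4.10, 6.44 and 3.03 RPKM, and were higher than under LD by 0.59, 0.52 and 0.40. In *G. soja* too, the middle of the 3 libraries was highest under SD at T3 for each of them, where Glyma18g09340.1 had 0.705, 0.829 and 0.971 RPKM, against 0.0428, 0.0971 and 0.370 RPKM under LD at T3. Whether these 3 transcripts share reads was not tested.

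The largest falls under SD at T3 were those of Glyma15g36583.1, Glyma11g06911.1 and Glyma13g33480.3. Glyma15g36583.1 had 1.15, 2.72 and 11.1 RPKM under SD and 5.72, 30.0 and 53.8 RPKM under LD (log2 difference -2.87, standard error 0.306, adjusted p = 9.96e-15), with overlap in the low range. It was lower under SD at T1 and T5 as well (-0.81 and -1.29). After the shift it rose at T1, to 9.14, 37.2 and 151 RPKM from 4.71, 8.93 and 43.6 RPKM under LD (log2 difference 1.63, standard error 0.306, adjusted p = 2.03e-06). At T5 its log2 difference after the shift was 0.86 (adjusted p = 0.023), but 0.34 (adjusted p = 0.45) without the 9 libraries of unclear label, 0.39 (adjusted p = 0.50) without replicate B and 0.50 (adjusted p = 0.45) without replicate C. Glyma11g06911.1 had 0.852, 1.45 and 3.10 RPKM under SD and 2.14, 4.03 and 5.24 RPKM under LD at T3 (log2 difference -0.91), and Glyma13g33480.3 had 4.36, 7.38 and 10.5 RPKM against 11.1, 13.7 and 20.3 RPKM (-0.90). Glyma11g06911.1 was higher under SD at T1, by 1.0.

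At T5, Glyma18g12210.1 fell most, from 29.1, 37.5 and 49.8 RPKM under LD to 3.58, 13.7 and 25.3 RPKM under SD, with no overlap (log2 difference -1.45, standard error 0.120, adjusted p = 2.57e-20). At T3 it changed the other way, from 3.63, 5.70 and 10.1 RPKM under LD to 10.9, 18.6 and 21.2 RPKM under SD, again with no overlap (log2 difference 1.48). It did so after the shift too, by 1.65 at T3 and -1.23 at T5. Under LD it thus had its low point at T3, and under SD at T5. Glyma10g06990.2 and Glyma13g06860.1 shared this pattern after the shift. They rose by 1.89 and 1.82 at T3 and fell by 0.49 and 0.50 at T5. Glyma10g12370.1 fell at T5 under SD by 1.17, with 1.18, 25.7 and 69.8 RPKM under SD and 16.0, 58.2 and 138 RPKM under LD, which overlap widely, and the call was lost without replicate B (-0.56, adjusted p = 0.19). Its fall after the shift at T5 (-0.82) was lost without replicate A (-0.68, adjusted p = 0.17) or B (-0.34, adjusted p = 0.54).

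Glyma02g18090.1, the most abundant of the set, had its widest change after the shift at T3, with 11.1, 26.6 and 220 RPKM against 43.9, 160 and 381 RPKM under LD (log2 difference -2.13, standard error 0.369, adjusted p = 4.28e-07). At T5 it was higher under SD (0.95, adjusted p = 0.023) and lower after the shift (-0.94, adjusted p = 0.044). Both calls at T5 were lost without replicate A, with 0.42 (adjusted p = 0.38) and -0.79 (adjusted p = 0.14), and the second also without replicate C (-0.90, adjusted p = 0.23). The 2 transcripts of Glyma08g30716 rose at T5 after the shift, by 0.64 and 0.63 on the log2 scale (standard errors 0.0735 and 0.0783), from medians of 1.99 and 2.24 RPKM under LD to 4.04 and 4.31 RPKM.

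**Figure D5:**
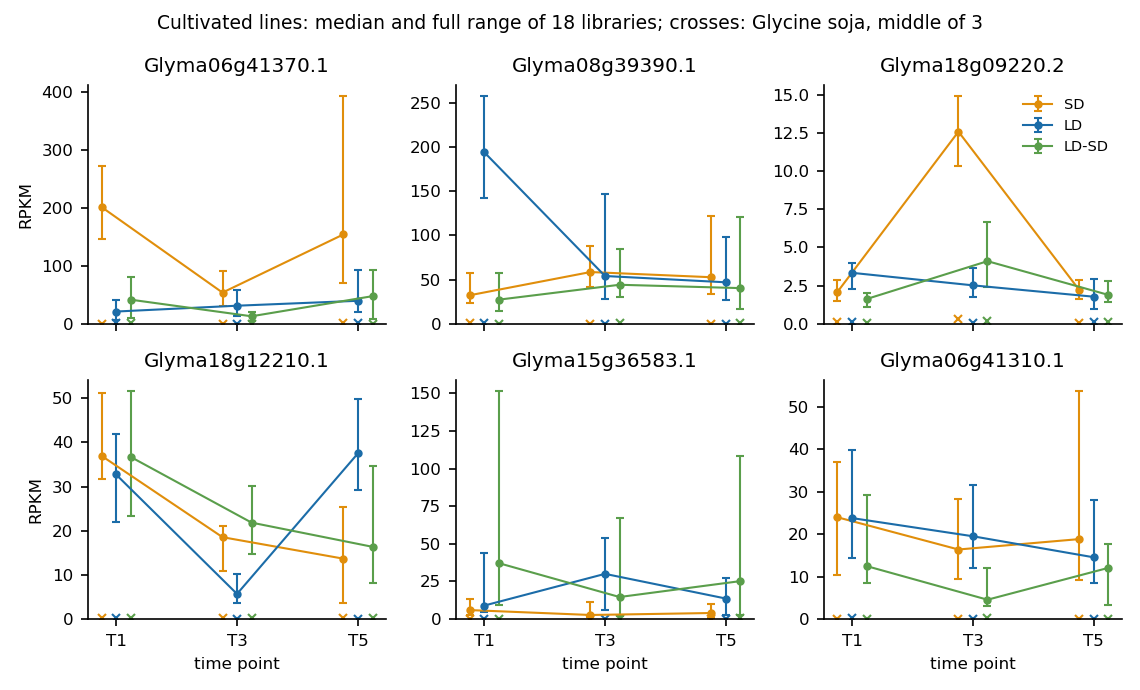
RPKM of 6 transcripts at the 3 time points on linear axes, where points are medians and bars the full range of the 18 cultivated libraries under SD (orange), LD (blue) and LD-SD (green), and crosses are the middle of the 3 *G. soja* libraries. Glyma06g41370.1 reaches a median of 201 RPKM under SD at T1 and Glyma08g39390.1 a median of 194 RPKM under LD at T1, while the crosses stay near 0.

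Over the 3 time points together, the limma F-test called a difference among time points for 136 of 150 transcripts under SD and for 130 under LD, against 85.0% and 76.6% of all transcripts. As shares of the set these are 90.7% and 86.7%, and with a minimum mean of 1 RPKM the shares of all transcripts were 92.1% and 85.1%. The highest mean over the cultivated lines lay at T5 for 68 transcripts under SD, for 84 under LD and for 71 after the shift. It lay at T1 for 57, 29 and 54 transcripts, and at T3 for 25, 37 and 25. No such count over all transcripts is given here, so whether these peaks are particular to the set cannot be said. The interaction of photoperiod (SD against LD) with time point passed for 134 transcripts (89.3%), against 77.8% of all transcripts and 86.3% of those whose mean reached 1 RPKM. In 43 transcripts (28.7%) SD was higher than LD at T1 and lower at T3, against 13.1% of all transcripts, and in 16 (10.7%) it was the reverse, against 7.72%. At all 3 time points, 4 transcripts (2.67%) were higher and 5 (3.33%) lower under SD, against 2.43% and 3.65%, and 5 (3.33%) had no call at any time point, against 10.6%. These pattern shares of all transcripts use the minimum mean of 0.1 RPKM, while cultivated means of the set started at 1.17 RPKM. They are not given at a minimum of 1 RPKM or with the median-of-ratios factor. Whether these patterns are particular to the set therefore cannot be said.

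Among the 54 cultivated groups, the highest mean of a transcript was between 1.44 and 43.6 times its lowest mean, with a median of 3.42. The ratio exceeded 5 for 32 transcripts and was under 2 for 16. The lines were also compared with each other. The F-test over the 6 lines called 12 of 150 transcripts (8.00%), against 5.30% of all transcripts, and it called 9, 8 and 7 without replicate A, B and C in turn. The share of all transcripts in these smaller fits is not given here. Whether the set exceeds all transcripts there cannot be said. The smallest p was that of Glyma04g02464.1 (adjusted p = 1.10e-38, 27 libraries per line, limma). Williams 82 had 3.01, 9.26 and 11.4 RPKM, and the medians of the other 5 lines lay between 3.86 and 4.53 RPKM. The low end of Williams 82 was 1 library of unclear label. Without such libraries Williams 82 had 7.11, 9.29 and 11.4 RPKM, above the highest value of 6.12 RPKM in the other 5 lines, and *G. soja* had 0.299, 0.672 and 1.41 RPKM. In Glyma04g01935.1 (adjusted p = 1.09e-33), Williams 82 was instead the lowest cultivated line, with a median of 8.13 RPKM, while the other 5 lines had medians between 12.9 and 14.6 RPKM. Williams 82 was also lowest in Glyma15g39510.1 (adjusted p = 8.83e-16), with a median of 3.25 RPKM against 4.85 to 6.37 RPKM. The other loci of that run, Glyma15g39515.1 and Glyma15g39520.1, were among the 12 as well (adjusted p = 0.000394 and 0.00574).

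Of the maturity, *FT* and *CONSTANS-LIKE* genes of the study, 10 loci were looked up (*E1* to *E4*, *GmFT2a*, *GmFT5a*, *GmCOL1a*, *GmCOL1b*, *GmCOL2a* and *GmCOL2b*). None of these 10 was in the set, and the best of them, *E4* (Glyma20g22160.1), ranked 40322 by score. Its mean was 19.8 RPKM in the cultivated lines and 15 RPKM in *G. soja*. *GmCOL1b* (Glyma18g51320.1) had 185 and 193 RPKM.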

How the data were processed

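RNA of 189 libraries was sequenced. After quality checks (FastX, FastQC), the authors mapped the reads on the transcripts of Williams 82 using Bowtie, obtained read numbers per transcript from a program of their own and deposited RPKM values without pooling replicates; the Bowtie version and the rule for reads with several matches are not given in the sources used here. Of 73320 transcripts, 1 with infinite values was left out, and 1712 are listed at 0 everywhere.

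From the deposited RPKM values, transcript lengths and mapped reads were recovered as the steps that give whole reads. Lengths were found for 96.8% of transcripts, all 150 of the set included, and 99.999% of values came out whole within 0.01 read. The reads were used for detection only, with 3 reads or fewer as the floor, which covers counting error only. No count test was run on them.

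All fits were made on log2(RPKM + 1) by limma 3.58.1 (R 4.3.3), a scale that understates changes of low transcripts. Each group had a coefficient, eBayes used a trend, transcripts or loci needed a mean of 0.1 RPKM over the libraries of the fit, and p values were adjusted over all of them (Benjamini-Hochberg, threshold 0.05). Photoperiod, time point and line were fitted on the cultivated libraries, and *G. soja* against the cultivated lines on all 189. Tables and figures used matplotlib 3.10.9, pandas 2.3.3, numpy 2.4.6 and scipy 1.17.1 under Python 3.11.15. The fits were tested on simulated data.

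Transcripts named are the 10 highest scores, the 5 most abundant in each species, those next to the limit, the 3 largest rises and falls with the same direction in all 6 lines in each photoperiod comparison, the 3 smallest p among lines, the 4 longest runs, 4 loci with other transcripts and loci named in the paper. The set and these lists were chosen with earlier results of these data known. Alternatives were no filter on low values, a higher filter (mean of 1 RPKM), 0.1 as the pseudocount, quantile normalization, a median-of-ratios factor, a replicate block, the omission of each replicate letter, eBayes without trend, SD and LD libraries only, and no libraries of unclear label. In 8 libraries most transcripts that set their line apart lay on the side of the other lines, and 1 library has a replicate letter that differs between the values and the sample records.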

Additional observations from a re-analysis of the deposited data

Results flagged for a closer look

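The difference between SD and LD in the cultivated lines varied with the time point for 134 of the 150 transcripts (89.3%, limma F-test of the interaction), against 77.8% of all transcripts and 86.3% of those whose mean reached 1 RPKM. Of the 42 named transcripts of the set, 24 passed this test and were called in opposite directions at different time points. Among these 24, 10 were named for a photoperiod change, and no explanation was tested. Part of the named list was picked for large photoperiod changes, so this count is not a share of the set. Over all transcripts, 13.1% were higher under SD at T1 and lower at T3, and 7.72% were the reverse. These shares cover T1 against T3 only, while some of the 24 were opposite through T5. No share of all transcripts opposite at any time points is given. With the median-of-ratios factor, 22 of the 24 were called in opposite directions, all but Glyma02g26791.1 and Glyma15g39520.1.

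Of those named for a photoperiod change, Glyma15g12211.1 (interaction adjusted p = 3.70e-24) was lower under SD at T1 by -1.65 and higher at T3 by 0.39. Glyma11g06911.1 (4.47e-29) was higher at T1 by 1.0 and lower at T3 by -0.91. Glyma08g15291.1 (9.50e-15) was lower at T1 by -1.12, higher at T3 by 0.49 and lower at T5 by -0.54. Glyma18g09140.1 (4.33e-21), Glyma18g09220.2 (1.24e-44) and Glyma18g09340.1 (1.77e-33) were lower at T1 by -0.70, -0.47 and -0.65 and higher at T3 by 2.00, 1.96 and 1.92. Glyma13g33480.3 (2.67e-13) was higher at T1 by 0.36 and lower at T3 by -0.90. Glyma18g12210.1 (4.11e-31), Glyma13g06860.1 (6.70e-19) and Glyma10g06990.2 (2.96e-14) were higher at T3 by 1.48, 1.29 and 0.79 and lower at T5 by -1.45, -0.81 and -0.81.

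Among the highest scores, Glyma04g37191.1 (2.01e-17), Glyma08g18211.1 (2.68e-21), Glyma12g09750.1 (1.91e-17), Glyma13g33380.1 (1.73e-12) and Glyma09g14870.1 (4.99e-14) were higher under SD at T1 by 0.50, 0.49, 0.23, 0.28 and 0.54 and lower at T3 by -0.44, -0.32, -0.62, -0.77 and -0.20. Glyma07g30180.1 (1.28e-09) was lower at T1 by -0.27 and higher at T3 by 0.88. Of the transcripts most abundant in *G. soja*, Glyma02g26791.1 (2.07e-07) was higher at T1 by 0.17 and lower at T3 by -0.20, and Glyma08g12480.1 (7.32e-11) was higher at T3 by 0.34 and lower at T5 by -0.28.

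Of those named for a difference among lines or for a run, Glyma04g02464.1 (6.58e-12), Glyma15g39510.1 (2.69e-06), Glyma15g39515.1 (5.93e-09), Glyma15g39520.1 (2.32e-07) and Glyma04g12716.1 (1.22e-06) were higher at T1 by 0.43, 0.33, 0.53, 0.47 and 0.66 and lower at T3 by -0.29, -0.44, -0.38, -0.29 and -0.34. Glyma04g01935.1 (2.85e-33) was higher at T1 by 1.08 and lower at T5 by -0.45.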

How the results depend on the processing

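Of 147 alternative values of the counts, 143 were within 1.5 times the main count. The members changed most with the pseudocount of the score, since 115 of 150 stayed among the highest scores with 0.1, 124 with single libraries in place of group means and 139 with medians. Leaving out a replicate letter moved the count for LD-SD minus LD at T5 from 41 to between 25 and 29, and the count for lines from 12 to between 7 and 9. The replicate block, the letter within a photoperiod and time point, gave 52 transcripts for LD-SD minus LD at T5 and 20 for lines, and 110, 108 and 82 for SD minus LD at T1, T3 and T5. The shares of all transcripts are not given for the block or for fits without a letter. These changes in the counts are therefore not read as particular to the set. Samples of the same letter deviated from their group means with a mean correlation of 0.18, and 271 of 400 pairs were above 0.1. For samples of different letters the mean correlation was -0.089, and 132 of 800 pairs were above 0.1. By the rule used the letters were not taken as pairs, although same-letter correlations were higher on average. For the photoperiod changes and line differences of named transcripts, 11 of 447 alternative values lost the call and 0 changed direction. They concern 5 results of Glyma02g18090.1, Glyma10g12370.1 and Glyma15g36583.1 at T5, 9 of them in fits with fewer libraries. The other 2 are of Glyma02g18090.1, for SD minus LD with the median-of-ratios factor (0.84, adjusted p = 0.053) and for LD-SD minus LD with no filter (-0.94, adjusted p = 0.056), and the cause was not tested. For 56 transcripts with at most 3 reads in every *G. soja* library, low could not be told from absent at this depth.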
